A study of Mus musculus with 47 samples.

Results

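Early T progenitors, the group labelled ETP, were set against granulocyte-macrophage progenitors, the group labelled GMP, to see which myeloid genes the early T progenitors keep and which they lack. The arrays were those whose titles begin with ETP (3 arrays) or with exactly GMP (3 arrays), 6 of the 47 arrays and 2 of the 17 groups of the series. Both groups came from adult C57Bl6 mice, with RNA of 2000 purified cells amplified for each Affymetrix mouse array. The labels give bone marrow as the source of both groups, although early T progenitors in common use of the name are cells of the thymus. They give no treatment, no mutation, no sorting markers, no ages and no sexes, and they do not spell out the group names. Arrays of a group are described as biological replicates, with nothing on which mice or pools they came from. A p-value here therefore reflects only how much arrays vary within groups, and that variation may be technical. The spread of a gene was pooled over all 17 groups of the series. A standard error (SE) can thus be wide although the ETP and GMP arrays of a gene lie close together. Also used, as outside points of the same strain and source, were LMPP (5 arrays), in common use lymphoid-primed multipotent progenitors, and CD4 (2 arrays), in common use a kind of T cell. Both comparisons with them share the ETP arrays with the comparison of ETP and GMP.

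Early T progenitors are the most immature cells of the T lineage, and signals through the Notch1 receptor drive them towards T cell fate. They have been known to form macrophages, dendritic cells and granulocytes when Notch signals are withheld, so how much of a myeloid programme they carry is an old question of the field. Granulocyte-macrophage progenitors are committed to the myeloid lineages. Under the factors PU.1 (Spi1) and C/EBP-alpha (Cebpa) they fill primary granules with myeloperoxidase and serine proteases, the enzymes with which neutrophils and monocytes later kill microbes.

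Of the primary granule genes tested, 9 of 13 were lower in ETP, as given below, so the 250 bases before the start of 4 of them are shown, from RefSeq on build GRCm38.p6, 5′ to 3′ on the strand of the gene. Capitals mark GAGGAAG, a sequence that PU.1 can bind, which was searched on both strands. Mpo lies at chr11:87793534-87793783 (plus strand), Prtn3 at chr10:79879417-79879666 (plus strand), Ctsg at chr14:56102575-56102824 (minus strand) and Elane at chr10:79886062-79886311 (plus strand). The fifth, the mast cell protease gene Cpa3 at chr3:20242182-20242431 (minus strand), is shown because it went the other way, and its capitals mark AGATAA, a sequence that GATA factors can bind.
Mpo: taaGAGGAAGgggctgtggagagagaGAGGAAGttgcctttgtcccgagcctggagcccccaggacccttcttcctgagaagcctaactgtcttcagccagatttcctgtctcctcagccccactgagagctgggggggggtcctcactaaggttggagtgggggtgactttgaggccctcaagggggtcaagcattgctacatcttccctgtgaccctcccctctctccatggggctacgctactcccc
Prtn3: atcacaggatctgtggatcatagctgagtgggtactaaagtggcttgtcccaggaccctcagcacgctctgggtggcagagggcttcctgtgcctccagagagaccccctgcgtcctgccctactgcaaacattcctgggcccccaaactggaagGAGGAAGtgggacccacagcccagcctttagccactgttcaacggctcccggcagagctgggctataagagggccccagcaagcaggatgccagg
Ctsg: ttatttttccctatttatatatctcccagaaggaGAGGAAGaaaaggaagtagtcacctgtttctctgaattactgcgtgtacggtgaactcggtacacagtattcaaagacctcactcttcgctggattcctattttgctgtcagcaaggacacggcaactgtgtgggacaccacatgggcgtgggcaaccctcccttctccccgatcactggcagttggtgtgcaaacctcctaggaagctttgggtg
Elane: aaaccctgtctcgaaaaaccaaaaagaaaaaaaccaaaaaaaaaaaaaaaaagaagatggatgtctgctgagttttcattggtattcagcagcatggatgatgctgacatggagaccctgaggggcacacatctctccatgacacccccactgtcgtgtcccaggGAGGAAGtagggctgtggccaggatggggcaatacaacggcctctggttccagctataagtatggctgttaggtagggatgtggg
Cpa3: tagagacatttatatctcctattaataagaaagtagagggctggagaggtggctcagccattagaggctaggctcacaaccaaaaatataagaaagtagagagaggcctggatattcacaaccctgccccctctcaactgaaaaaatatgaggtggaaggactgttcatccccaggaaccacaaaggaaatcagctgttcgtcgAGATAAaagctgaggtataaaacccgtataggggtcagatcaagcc

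GAGGAAG was found in 6 of 11 primary granule promoters with an entry in the table (54.5%), against 10.6% of all 32851 promoters of that length. The 6 were Mpo, Prtn3, Ctsg, Elane, Ctsc and Clec5a. The sequence did not follow the calls gene by gene. Ms4a3, Fcnb and Cst7 were lower in ETP and lacked it, while Ctsc held it and was not called lower. Mpo held it at 247 and 224 bases before the start, Ctsg at 216, Prtn3 at 95 and Elane at 85. Prtn3 and Elane are neighbours on chromosome 10. The same letters were in 5 of 16 promoters of the T receptor list (31.2%) and in 3 of 22 of the monocyte and macrophage list (13.6%). A C/EBP-type sequence, TTNNGNAA, was found in 5 of the 11 primary granule promoters (45.5%), against 36.8% of all promoters. AGATAA stood at 46 bases before the start of Cpa3 and in none of the 11 primary granule promoters, against 9.99% of all promoters. These are matches of letters and were not tested as binding sites.

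Levels are given as log2 of the deposited intensity, and a difference is ETP minus GMP on that scale, so that a difference of 1 is 2-fold. A gene was called when limma's moderated test gave an adjusted p (Benjamini-Hochberg, over 13949 genes) under 0.05 and the difference was at least 2-fold. By this rule 817 genes were higher in ETP (5.86%) and 923 were lower (6.62%), with a median difference of -0.06 over all genes tested. The ETP arrays correlated with each other at 0.984 to 0.989, the GMP arrays with each other at 0.995 to 0.997, and ETP with GMP arrays at 0.923 to 0.936. The median standard deviation of a gene was 0.187 within ETP and 0.136 within GMP. Of the ETP arrays, replicate 1 stood apart, with 38 genes over 2-fold above and 72 over 2-fold below both other ETP arrays. It was also the only ETP array without the X-inactivation transcript Xist, at 3.76 against 10.95 and 11.21 on replicates 2 and 3, and so matched all 3 GMP arrays (3.58 to 4.15). ETP replicates 2 and 3 carried both Xist and the Y-linked Eif2s3y (7.68 and 7.17). A fit with the class of the arrays by these transcripts as a block called 843 genes higher and 925 lower.

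The labels were checked against marker genes. Of the T receptor complex, Cd3e, Cd3d and Cd3g were at the level of GMP in ETP, at means of 5.12, 3.19 and 2.79, against 5.12, 3.41 and 2.64 in GMP, whereas CD4 arrays averaged 8.40, 10.88 and 11.00. The Notch genes Notch1 and Nrarp were higher on every ETP array than on every GMP array, with values given below. The mature T markers Cd4 and Cd8a and the B cell markers Cd79a, Pax5 and Ebf1 did not pass the test and had differences between -0.18 and 0.14. The same held for the NK marker Ncr1 (0.03), the erythroid factor Klf1 (-0.25) and the platelet gene Pf4 (0.32). Among all tested markers of B, NK, mature T, erythroid and platelet cells, none was called lower in ETP. Called higher were Klrd1 of the NK list (4.75), Icos of the mature T list (2.38), Blk and Car2. The largest difference was 1.78 in the B list, which holds Blk, and 2.5 in the erythroid list, which holds Car2.

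**Figure D1:**
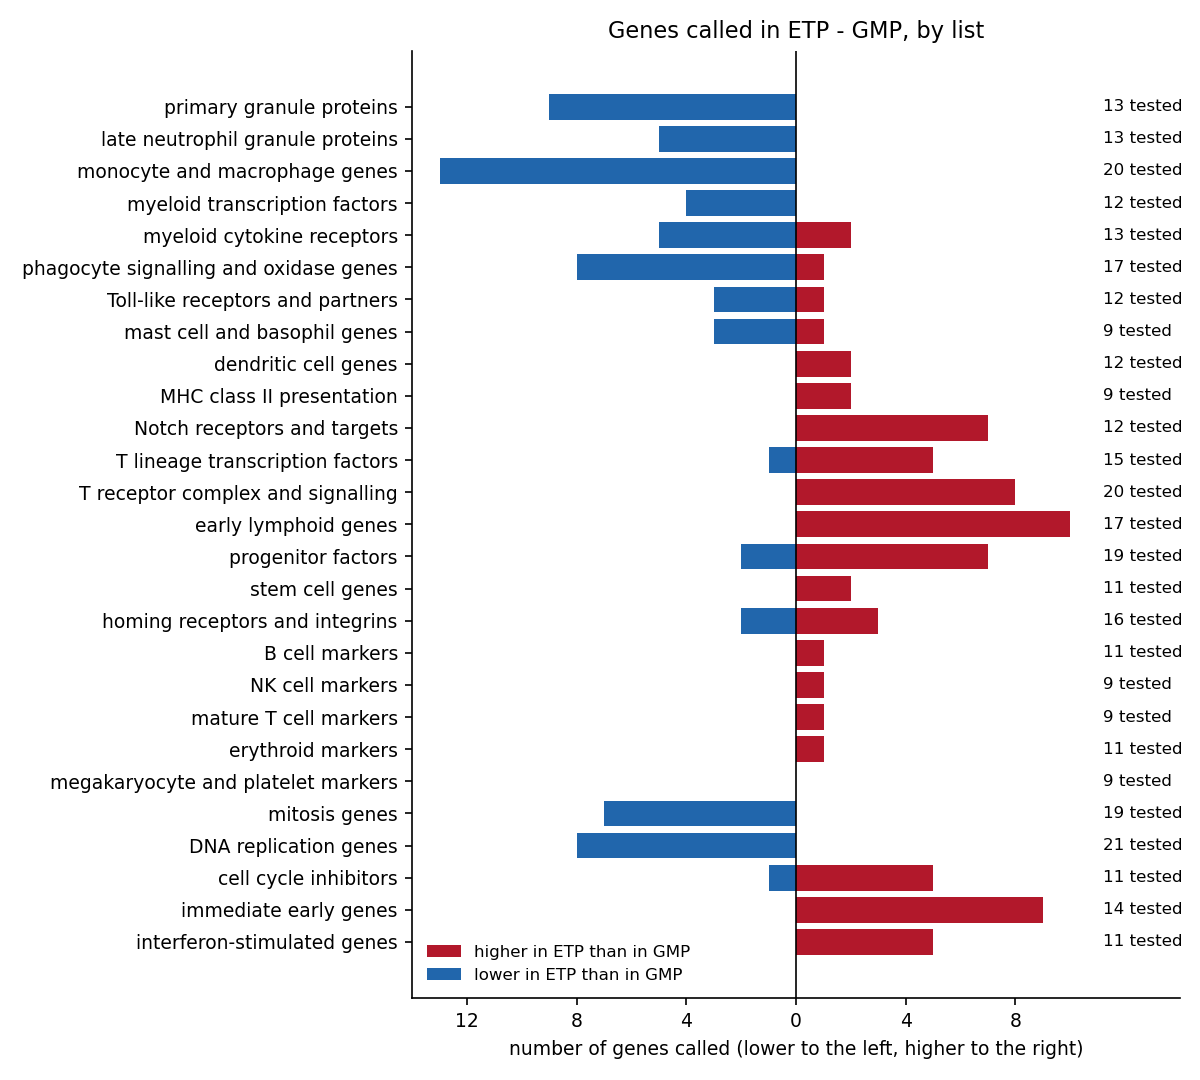
Bars count the genes of each list that were called in ETP minus GMP (x axis, number of genes, with higher in ETP to the right and lower to the left), and the number of genes tested is at the right. Most calls of the primary granule, monocyte, phagocyte and cell division lists lie to the left, and most calls of the Notch, T lineage, early lymphoid and immediate early lists to the right.

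The myeloid genes that were lower in ETP were mostly granule, monocyte and phagocyte genes. Over 9 myeloid lists, 121 of 142 genes were tested, with a median difference of -0.73. Of these 121, 50 were lower in ETP (6.62% of all genes tested) and 7 higher (5.86% of all genes tested). The count of 7 was thus near the share of all genes. A 95% interval of the difference within 2-fold in either direction was found for 31 (64.1% of all genes tested). Of the 50 that were lower, 26 had an ETP mean within 2-fold of the lowest of the 17 group means of that gene, so that no group was over 2-fold lower. The other 24 were over 2-fold above that lowest mean, so that they were reduced in ETP but still above the bottom of their range. Fewer cells of a type and less RNA per cell cannot be told apart in these arrays. When ETP replicate 1 was the only ETP array, the lone array being assumed to vary like the others (a setting added after the data were seen), 36 myeloid genes were lower and 8 higher. Without that array, 46 were lower and 7 higher. Set against LMPP, 18 of the 121 were lower in ETP (4.81% of all genes tested) and 7 higher (7.12%). Set against CD4, 22 were lower (13.9%) and 30 higher (12.5%).

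Of 13 primary granule genes tested, 9 were lower in ETP and none was higher, with a median of -3.14. Myeloperoxidase (Mpo), the peroxidase of the granule, was at 10.74, 10.45 and 10.87 in ETP, against 13.81, 13.82 and 13.83 in GMP. The groups did not overlap (as for 47.2% of all genes tested), and the ETP arrays lay close together. The difference was -3.14 (SE 0.74, adjusted p = 0.00145 by limma), or 8.79-fold. With ETP replicate 1 as the only ETP array it was -3.08 and missed the threshold (adjusted p = 0.0639). The ETP level nevertheless stood far above the CD4 mean of 3.58, by 7.11 (adjusted p = 6e-09), and next to the LMPP mean of 10.98, from which it differed by -0.29 (adjusted p = 0.768). Among the 17 groups, ETP had rank 5 for Mpo, below GMP, GM (13.06), STHSC (11.35) and LMPP and above CLP (10.09), and the arrays of ETP and LMPP overlapped.

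Serine proteases of the same granule were also reduced and still measured. Cathepsin G (Ctsg) was at 8.89, 8.41 and 8.44 in ETP, against 12.70, 12.72 and 12.68 in GMP, a difference of -4.12 (SE 0.54, adjusted p = 1.76e-07). It was 4.98 above the CD4 mean of 3.60 and differed by 0.12 from the LMPP mean of 8.46. Proteinase 3 (Prtn3) was at 8.84, 7.95 and 7.53 in ETP, against 13.30, 13.43 and 13.38 in GMP, the highest ETP array being replicate 1. Its difference of -5.27 (SE 0.46, adjusted p = 1.46e-11) was larger, and it was also lower in ETP than in LMPP (mean 10.51, difference -2.41). Annexin A1 (Anxa1), an anti-inflammatory protein of granulocytes taken from the late neutrophil list, was also reduced and still measured. It had a difference of -1.97 (adjusted p = 0.00362) and an ETP level 4.68 above CD4, and its 2 probe sets ran from -1.97 to -0.31.

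Of other granule genes, Elane, Hp and Clec5a were near their lowest level in ETP, while Ms4a3 was over 2-fold above its own. Neutrophil elastase (Elane), the protease whose gene neighbours Prtn3, was at 5.15, 5.05 and 4.97 in ETP, against 8.62, 8.20 and 8.55 in GMP (difference -3.40, adjusted p = 8.33e-12), and the CD4 mean was 4.79. Haptoglobin (Hp), a haemoglobin-binding protein of granules, was at 4.75, 4.62 and 4.23 in ETP, against 10.73, 10.50 and 10.39 in GMP, a difference of -6.0. Clec5a, a lectin receptor of myeloid cells, was at 2.77 to 3.15 in ETP, against 6.97 to 7.31 in GMP. For each of these the ETP and GMP arrays were far apart, and the differences of ETP from CD4 were 0.27 for Elane, 0.31 for Hp and 0.07 for Clec5a. Ms4a3, a membrane protein typical of granulocyte-macrophage progenitors, was at 5.83, 5.04 and 4.79 in ETP, against 11.21, 11.32 and 11.27 in GMP (difference -6.05, SE 0.28, adjusted p = 3.65e-19). The gene was 1.48 above the CD4 mean of 3.74 in ETP, with replicate 1 the highest. That CD4 mean was the lowest of the 17 groups, and Ms4a3 was called higher in ETP than in LMPP (mean 4.12, difference 1.1).

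The other 4 primary granule genes were not called. The protease inhibitor Serpinb1a was at 10.74, 10.73 and 10.74 in ETP, against 11.27, 11.18 and 11.15 in GMP, a difference of -0.46 (95% interval -1.0 to 0.07). No pair of arrays overlapped, but the gap was small beside the 5.75 by which ETP exceeded CD4. Cathepsin C (Ctsc), which activates the granule proteases, had a difference of -0.71 (adjusted p = 0.029, under 2-fold), and Nkg7, a granule membrane protein, one of -0.76 (adjusted p = 0.495). Lysozyme (Lyz2), an enzyme of macrophages and neutrophils, had a difference of -1.60 that missed the threshold (adjusted p = 0.123), with an ETP mean of 6.56 and a GMP mean of 8.17.

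**Figure D2:**
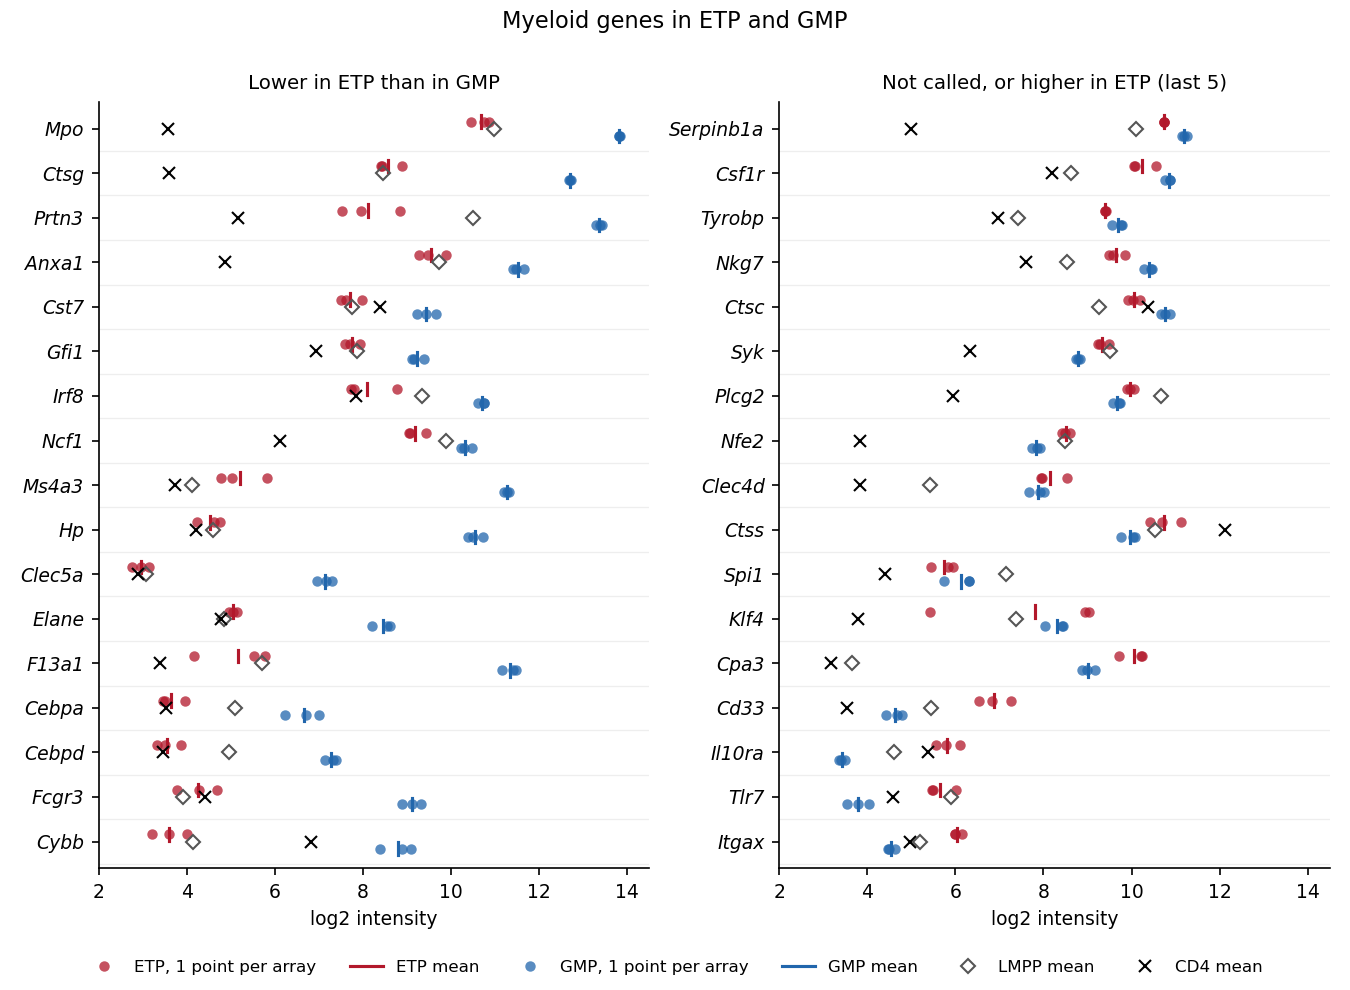
Points are log2 intensities of single arrays (x axis), with ETP above GMP for each gene, lines for group means and symbols for the LMPP and CD4 means. At the left, Mpo, Ctsg and Prtn3 lie between GMP and CD4, while Hp, Clec5a, Elane, Cebpa and Cebpd lie at the CD4 level. At the right, ETP and GMP lie close together for Serpinb1a, Csf1r and Tyrobp, and ETP exceeds GMP for Cpa3 and Cd33.

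The granule proteins that neutrophils make later were lower or not called. Of 13 tested, 5 were lower in ETP and none higher, with a median of -1.97. The calgranulin gene S100a8 was at 4.49, 4.14 and 3.77 in ETP, against 10.76, 10.66 and 10.76 in GMP (difference -6.60, SE 1.60, adjusted p = 0.00196). The ETP and GMP arrays were wide apart. The chitinase-like Chil3 (difference -5.64, adjusted p = 0.00584) and S100a9, the partner of S100a8 (difference -4.73, adjusted p = 0.0107), were lower too. S100a9 was at 4.31 on ETP replicate 1 and at 2.79 and 3.09 on replicates 2 and 3, against 7.86 to 8.52 in GMP. Ngp, a granule protein, had a difference of -4.18, and its call ended when any 1 of the 6 arrays was left out (adjusted p of 0.0715 to 0.103). Lactoferrin (Ltf, -1.58), lipocalin 2 (Lcn2, -2.43) and the antimicrobial peptide Camp (-2.57) did not pass the test. The single GMP arrays of these 3 genes ran from 5.02 to 7.36 and the ETP arrays from 3.33 to 4.63, with no overlap for any gene. Standard deviations within GMP were 0.36, 0.33 and 0.28, while the SEs, from the spread of all 17 groups, were 1.17, 1.04 and 0.99. GMP was not the highest group for most of this list. The highest of the 17 group means was in NKmature for S100a8, S100a9, Chil3, Lcn2, Camp and Cd177. It was in IgM+SP for Ltf, Ngp, Mmp8, Mmp9 and Itgb2l, in LMPP for Padi4 and in GMP for Anxa1. When only the compared arrays were fitted, 8 genes of the list were called lower. With ETP replicate 1 as the only ETP array, none of the 13 was called.

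Of 20 monocyte and macrophage genes tested, 13 were lower in ETP and none was higher, with a median of -1.59. Coagulation factor XIII A (F13a1), which marks monocyte-primed cells, was at 4.16, 5.53 and 5.78 in ETP, against 11.40, 11.48 and 11.15 in GMP (difference -6.19, SE 0.49, adjusted p = 9.78e-13). Replicate 1 was the lowest ETP array, and the groups were apart by over 5 units. The lectin receptor Clec4a2 (-5.55), the chemokine Ccl9 (-4.38) and the lectin Clec7a, which senses fungal glucans (-4.13), fell as well. So did Ms4a6c (-3.86) and Ly86, a partner of a Toll-like receptor relative (-3.70). The adjusted p by limma was 1.04e-05 or less for each of these. Clec4a2, Ccl9 and Ms4a6c had 2 probe sets each, and the other probe set gave -0.90, -0.96 and -0.59. Perforin 2 (Mpeg1), a pore-forming protein of macrophages, was at 9.03 on ETP replicate 1 and at 5.86 and 5.53 on replicates 2 and 3, against 9.88, 9.76 and 9.52 in GMP. Its difference of -2.91 (adjusted p = 0.0146) thus rested on replicates 2 and 3, and its call ended without either of them (adjusted p of 0.0885 without replicate 2 and 0.12 without replicate 3). The lectin Lgals3 was at 4.88 on ETP replicate 1 and at 3.77 and 3.13 on replicates 2 and 3, against 5.56 to 6.07 in GMP, and the calls of Lgals3 and Cd14 ended when single arrays were left out.

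Monocyte genes that did not pass the test included some at a high level in ETP. Cathepsin S (Ctss), a lysosomal protease of antigen-presenting cells, was at 11.12, 10.69 and 10.43 in ETP, against 10.08, 10.04 and 9.77 in GMP (difference 0.78, adjusted p = 0.053). Ctss was called lower in ETP than in CD4 (mean 12.13, difference -1.38), and its highest group mean was in IgM+SP. Clec4d, a myeloid lectin receptor, was at 7.96, 8.53 and 7.94 in ETP, against 7.93, 8.01 and 7.68 in GMP, with overlapping arrays and a difference of 0.27 (95% interval -1.12 to 1.66). Its ETP level was 4.30 above the CD4 mean of 3.85 and 2.73 above the LMPP mean of 5.42, both called. Ccr2, the receptor that draws monocytes to tissues, had a difference of 0.06 in its brightest probe set, while its 4 probe sets ran from -2.92 to 0.06, so its direction was not settled.

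The transcription factors that direct the myeloid lineages differed in kind. Of 12 tested, 4 were lower in ETP and none higher, with a median of -0.61. Cebpa, the factor needed to form granulocyte-macrophage progenitors, was at 3.97, 3.50 and 3.47 in ETP, against 6.72, 7.0 and 6.24 in GMP (difference -3.01, SE 0.20, adjusted p = 1.64e-14). Its relative Cebpd was at 3.86, 3.33 and 3.50 in ETP, against 7.32, 7.38 and 7.15 in GMP (difference -3.72, adjusted p = 7.18e-12). The 2 probe sets of Cebpd ran from -3.72 to -0.96. The differences from CD4 were 0.12 for Cebpa and 0.10 for Cebpd, and neither gene's ETP arrays overlapped with GMP.

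Irf8, a factor of monocytes and dendritic cells, was reduced and still well measured, at 8.77, 7.74 and 7.79 in ETP, against 10.75, 10.74 and 10.61 in GMP (difference -2.61, adjusted p = 1.71e-07). Gfi1, a repressor that acts in granulocytes and in lymphoid cells, was at 7.59, 7.71 and 7.93 in ETP, against 9.39, 9.11 and 9.17 in GMP (difference -1.48, adjusted p = 0.00192). The arrays of the groups did not overlap for either gene. Spi1, which encodes PU.1, was at 5.84, 5.94 and 5.45 in ETP, against 6.31, 6.32 and 5.74 in GMP, with overlapping arrays (difference -0.38, 95% interval -1.05 to 0.30). Its differences from CD4 (1.35) and from LMPP (-1.41) were both called. Nfe2 (0.66), Irf5 (0.38) and Cebpb (-0.73) did not pass the test, and Klf4, a monocyte factor, was at 5.43 on ETP replicate 1 and at 8.94 and 9.03 on replicates 2 and 3, on either side of the GMP arrays (8.45, 8.41 and 8.03).

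Receptors for the myeloid growth factors were mixed. Of 13 tested, 5 were lower and 2 higher in ETP, with a median of -0.62. The receptor for macrophage colony-stimulating factor (Csf1r), through which monocytes survive, was at 10.55, 10.08 and 10.05 in ETP, against 10.88, 10.87 and 10.77 in GMP. All 3 ETP arrays were below all GMP arrays, by a difference of -0.62 that did not pass the test (SE 0.61, 95% interval -1.85 to 0.61, adjusted p = 0.582). Csf1r was called higher in ETP than in LMPP (difference 1.61) and than in CD4 (difference 2.03), and ETP had rank 3 of the 17 groups, after GM (10.90) and GMP (10.84).

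The 5 receptors that were lower were Csf3r, Csf2ra, Csf2rb, Ifngr1 and Il6ra, while Csf2rb2 (-0.44) and Il3ra (-0.19) did not pass the test. The Il6ra call ended without ETP replicate 1, ETP replicate 3 or GMP replicate 1 (adjusted p by limma of 0.0545, 0.0672 and 0.0653). The 2 probe sets of Il6ra ran from -1.33 to 0.21, the 2 of Csf2ra from -1.71 to -0.39 and the 2 of Csf2rb from -1.84 to -0.87. Csf3r, the receptor for granulocyte colony-stimulating factor, was at 4.17, 4.09 and 4.11 in ETP, against 6.55, 5.92 and 6.20 in GMP (difference -2.10, adjusted p = 1.77e-06). For the receptor for granulocyte-macrophage colony-stimulating factor, both Csf2ra and Csf2rb fell, with differences of -1.71 for Csf2ra and -1.84 for Csf2rb, and Csf2rb was still 2.18 above CD4. Ifngr1, which binds interferon gamma, was lower too (difference -2.17, adjusted p = 7.99e-10), and ETP was the lowest of the 17 groups for it. Il10ra, the interleukin 10 receptor, was higher in ETP, at 5.78, 5.56 and 6.10, against 3.41, 3.49 and 3.36 in GMP (difference 2.39, adjusted p = 2.33e-06), and so was Il17ra (difference 1.42). The 3 probe sets of Il10ra ran from 0.10 to 2.39. Its difference from CD4 (0.43) was not called, and its highest group mean was in NKmature. Il17ra had its highest group mean in CD4 (9.59), and its call ended with the mean of all probe sets.

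Of 17 genes for phagocyte signalling and the oxidase, 8 were lower in ETP and 1 higher, with a median of -0.56. The catalytic subunit of the oxidase, Cybb, was at 3.60, 4.00 and 3.21 in ETP, against 9.10, 8.88 and 8.40 in GMP (difference -5.19, adjusted p = 1.97e-10). Its 3 probe sets ran from -5.19 to -0.98. The low-affinity antibody receptor Fcgr3 was at 4.69, 4.29 and 3.79 in ETP, against 9.33, 9.12 and 8.89 in GMP (difference -4.86, adjusted p = 5.83e-14). For both, every ETP array was far below every GMP array, and the shared signalling chain Fcer1g fell with them (difference -2.17). The cytosolic oxidase subunit Ncf4 (-1.71) and the inhibitory receptor Sirpa (-2.01) were also lower, while the calls of Ncf1 and Cyba ended when 1 array was left out. The 3 probe sets of Sirpa ran from -2.01 to -0.24.

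The adaptor Tyrobp, which carries signals of many myeloid and NK receptors, was kept, at 9.41, 9.40 and 9.39 in ETP, against 9.76, 9.78 and 9.55 in GMP. Its difference of -0.30 had a 95% interval of -0.97 to 0.38, inside 2-fold, although the interval passed 2-fold when any 1 array was left out. ETP exceeded LMPP (mean 7.43) by 1.97 and CD4 (mean 6.97) by 2.43. The highest group means of Tyrobp were in ProB (12.79) and NKmature (12.19), far above GMP. The kinase Syk and the phospholipase Plcg2, which act below such receptors and below the B cell receptor, were at means of 9.34 and 9.97 in ETP and 8.78 and 9.67 in GMP, and both were over 3 units above CD4. Cd33, a sialic acid receptor of myeloid cells, was higher in ETP, at 7.26, 6.53 and 6.83, against 4.43, 4.79 and 4.68 in GMP (difference 2.24, SE 0.31, adjusted p = 4.19e-07). The groups were clearly apart, and ETP had the highest mean of the 17 groups, followed by CLP (6.25, arrays from 6.17 to 6.33).

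**Figure D3:**
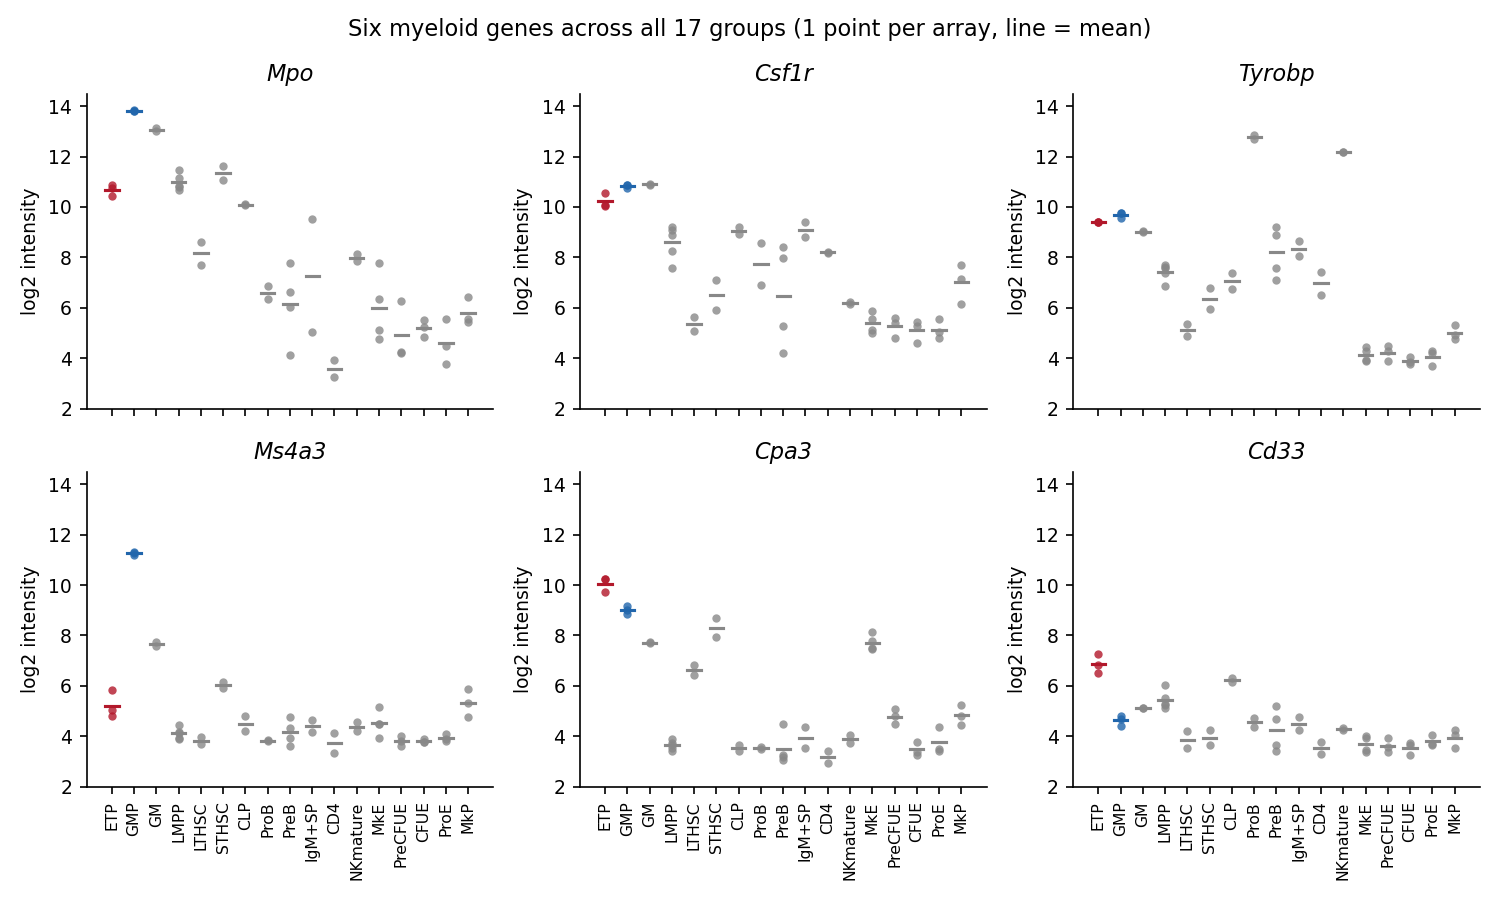
Each panel plots 1 gene, with points for the log2 intensity (y axis) of single arrays and lines for group means, ETP first and GMP second of 17 groups. Mpo in ETP lies between GMP and CD4, Ms4a3 is high in GMP and to a lesser degree in GM, and Cpa3 and Cd33 have their highest mean in ETP.

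Of 12 genes for Toll-like receptors and their partners, 3 were lower and 1 higher in ETP, with a median of -0.07. Tlr1 fell (difference -1.45), and Tlr2 and Tlr4, the receptors for bacterial lipoproteins and lipopolysaccharide, had differences of -1.02 and -1.05, but both of these calls ended when single arrays were left out. The 4 probe sets of Tlr4 ran from -1.86 to 0.09. Tlr7, a sensor of RNA, was higher in ETP, at 6.02, 5.49 and 5.47, against 3.54, 3.78 and 4.03 in GMP (difference 1.87, adjusted p = 2.15e-05). Its 3 probe sets ran from 0.53 to 1.87, and with the mean of all probe sets its call ended, which left 0 Toll-like genes called higher. The adaptor Myd88 had a difference of 0.19, with a 95% interval of -0.17 to 0.56.

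Mast cell and basophil genes split. Carboxypeptidase A3 (Cpa3), a mast cell granule protease, was at 9.71, 10.22 and 10.24 in ETP, against 9.16, 8.99 and 8.87 in GMP (difference 1.05, SE 0.29, adjusted p = 0.00609). No ETP array overlapped with GMP, and ETP had the highest mean of all groups, 6.41 above LMPP and 6.88 above CD4. Other stem and progenitor groups also held Cpa3, with means of 8.31 in STHSC, 7.72 in MkE, 7.72 in GM and 6.64 in LTHSC. The call over GMP was close to the 2-fold limit and ended without ETP replicate 2 (0.97), without ETP replicate 3 (0.96) or without GMP replicate 3 (0.99). The high-affinity IgE receptor chain Ms4a2 was at 3.84, 4.45 and 4.04 in ETP, against 7.85, 8.0 and 7.96 in GMP (difference -3.82, adjusted p = 2.58e-13). Its 2 probe sets ran from -3.82 to -0.96. The histamine enzyme Hdc (-2.04) and the basophil protease Mcpt8 (-1.80) fell too. Of 9 genes in this list, Cpa3 alone was called higher.

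Of 12 dendritic cell genes tested, 2 were higher in ETP and none lower, with a median of 0.03. An interval within 2-fold was found for 8 of them, a share near that of all genes tested (64.1%), and the ETP means of those 8 were within 2-fold of the lowest group mean of the gene. The integrin Itgax (CD11c) was at 5.99, 6.15 and 5.99 in ETP, against 4.47, 4.49 and 4.63 in GMP (difference 1.51, adjusted p = 7.36e-05). Tcf4, a factor of plasmacytoid dendritic cells, differed by 1.29 (adjusted p = 4.96e-05) while remaining below LMPP. The 6 probe sets of Tcf4 ran from 0.14 to 1.59.

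A wider set of genes was picked on arrays that were neither ETP nor GMP. These were called and at least 4-fold higher in GM than in the mean of CD4, IgM+SP, PreB and NKmature. Of 455 such genes, 123 were lower in ETP (27%) and 96 higher (21.1%), with a median of -0.27, and 104 had an interval within 2-fold (22.9%). Over all genes tested, 6.62% were lower, 5.86% were higher and 64.1% had such an interval. The set was not limited to myeloid genes. Beside Mpo and Ctsg it held Dntt, Mycn, Flt3, Hoxa9 and Erg, which were higher in ETP, and Kit, Tal1 and Klf1, which were not called. Of 442 genes picked likewise as higher in CD4 than in IgM+SP, PreB and GM, 125 were higher in ETP (28.3%) and 24 lower (5.43%), with a median of 0.25. The share of lower genes in this set was near that of all genes tested (6.62%). The split depended on the fold that picked the genes. With 2-fold, 311 of 1573 GM genes were lower (19.8%) and 189 higher (12%), and with 8-fold, 43 of 168 were lower and 43 higher (25.6% each). Of the CD4 genes, 15.2% were higher with 2-fold and 37.5% with 8-fold.

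Genes of the Notch pathway were among the 817 that were higher in ETP. Of 12 Notch receptors and targets tested, 7 were higher in ETP and none lower, with a median of 1.41. Notch1 itself was at 12.21, 12.06 and 12.45 in ETP, against 9.25, 9.19 and 8.96 in GMP (difference 3.11, SE 0.27, adjusted p = 1.33e-11), the highest mean of the 17 groups. Its feedback inhibitor Nrarp was at 7.76, 8.28 and 8.43 in ETP, against 4.76, 5.31 and 4.75 in GMP (difference 3.22), and the repressor Hes1 at 7.10, 7.71 and 6.98 in ETP, against 3.79, 3.81 and 3.97 in GMP (difference 3.41). No array of the groups overlapped for any of these. The interleukin 2 receptor chain Il2ra, a mark of the next thymic stages, was at 4.07 on ETP replicate 1 and at 7.5 and 8.02 on replicates 2 and 3, against 2.79 to 2.96 in GMP (difference 3.66, adjusted p = 1.19e-07). The ubiquitin ligase Dtx1, a Notch target, was higher by 1.80.

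Of 15 T lineage factors, 5 were higher and 1 lower, with a median of 0.77. Tox, which is needed for CD4 T cell development, was at 6.86, 6.35 and 7.02 in ETP, against 2.73, 2.45 and 2.50 in GMP (difference 4.19, adjusted p = 6.56e-18). Gata3, needed for the earliest T cells, was at 4.37, 5.57 and 5.15 in ETP, against 2.91, 3.03 and 3.02 in GMP (difference 2.04), and Ikzf2 (2.26) and Runx1 (1.21) were higher too. Bcl11b, which seals commitment to the T lineage, was at 4.67, 4.51 and 3.91 in ETP, against 3.26, 3.46 and 3.20 in GMP, just past 2-fold (difference 1.05, adjusted p = 0.000843), and it differed by -6.93 from CD4. The call ended without ETP replicate 1 (0.90), without ETP replicate 2 (0.98) or without GMP replicate 3 (1.00). Lef1 had a difference of 0.03, and Ets2 was lower (difference -1.11), a call that ended without ETP replicate 3.

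Of 20 genes for the T receptor complex and its signalling, 8 were higher in ETP and none lower than in GMP, while 18 were lower than in CD4. Trat1, a receptor-associated adaptor, was at 5.78, 6.94 and 5.44 in ETP, against 3.25, 3.20 and 3.27 in GMP (difference 2.82). Cd27 (2.17), the kinase Prkcq (2.16), Cd7 (1.91), the adaptor Lat (1.88) and Cd5 (1.69) were higher as well. The probe set listed under Trbv1, a T cell receptor beta segment, had the largest difference of all, at 11.95, 12.32 and 12.29 in ETP, against 2.91, 2.92 and 3.02 in GMP (difference 9.23, adjusted p = 3.36e-17). Another of its probe sets gave 0.15, and receptor segments share sequence, so which segment was measured is uncertain.

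**Figure D4:**
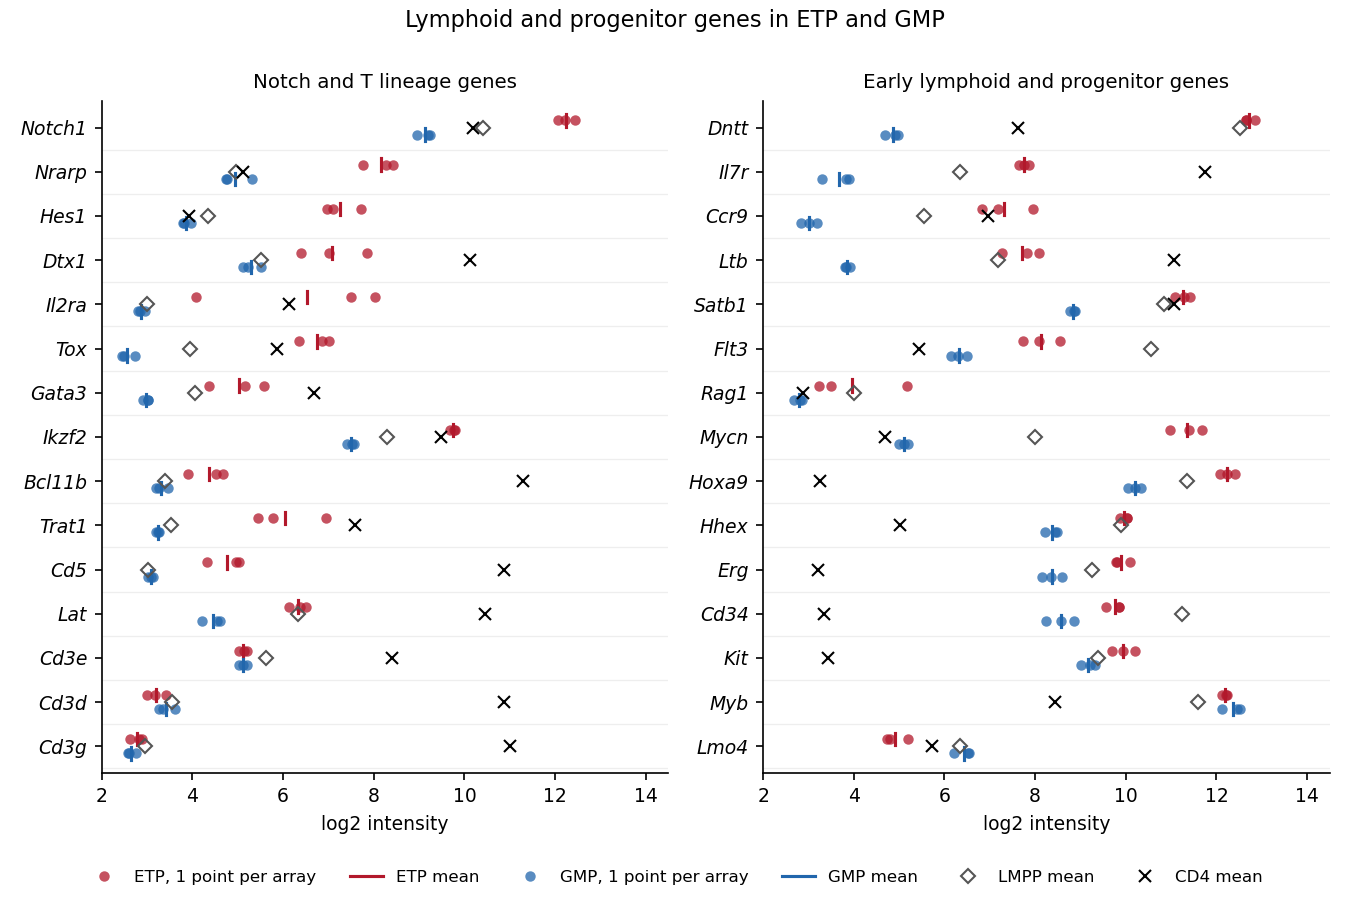
Points are log2 intensities of single arrays (x axis), with ETP above GMP for each gene, lines for group means and symbols for the LMPP and CD4 means. Notch1, Nrarp, Hes1 and Mycn are higher in ETP than in GMP, LMPP and CD4, while Cd3e, Cd3d and Cd3g lie at the GMP level and far below CD4.

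Early lymphoid genes were higher or not called. Of 17 tested, 10 were higher in ETP and none lower, with a median of 1.34. Terminal transferase (Dntt), which adds bases at receptor gene joints, was at 12.85, 12.66 and 12.66 in ETP, against 4.97, 4.90 and 4.69 in GMP (difference 7.87, SE 0.41, adjusted p = 1.33e-17), and LMPP had a mean of 12.51. The lymphoid cytokine receptor Il7r was at 7.86, 7.64 and 7.75 in ETP, against 3.90, 3.83 and 3.30 in GMP (difference 4.07), and the thymus-homing receptor Ccr9 was at 7.96, 7.19 and 6.82 in ETP, against 3.18, 3.01 and 2.83 in GMP (difference 4.32). Both groups lay apart for each. Flt3, a receptor of multipotent and lymphoid progenitors, was higher than in GMP by 1.81, although LMPP was higher still at 10.55. The recombinase gene Rag1 was at 5.17 on ETP replicate 1 and at 3.24 and 3.50 on replicates 2 and 3, and its call (difference 1.19, adjusted p = 0.0388) ended without ETP replicate 1 (0.59, adjusted p = 0.417). It also ended without GMP replicate 1, 2 or 3 (adjusted p of 0.0869, 0.109 and 0.0719).

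Of 19 progenitor factors tested, 7 were higher and 2 lower in ETP, with a median of 0.77. Mycn, a growth-promoting factor, was at 11.69, 10.97 and 11.40 in ETP, against 4.99, 5.20 and 5.10 in GMP (difference 6.26, adjusted p = 8.68e-17), the highest mean of all groups. Hoxa9 (2.06), Bcl11a (2.18), Hhex (1.60) and Erg (1.53), factors of stem and progenitor cells, were also higher. The growth factor receptor Kit, at means of 9.95 in ETP and 9.17 in GMP, did not pass the test (difference 0.77), and neither did the progenitor factors Myb (-0.18), Lyl1 (0.01) and Tal1 (0.09), whose intervals lay within 2-fold. Pbx3 (-1.62) and Lmo4 (-1.51) were lower.

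By the size of the difference alone, the largest falls in ETP, beside S100a8, F13a1, Ms4a3 and Hp, included the lipid enzyme Sgms2 (-6.19). Others were the annexin Anxa3 (-5.94), the stem cell antigen Prom1 (-5.83), the myeloid receptor Trem3 (-5.73) and the purine enzyme Gda (-5.71). The amyloid precursor App (-5.68) was among them too, and its probe sets ran from -5.68 to 0.19. The largest rises, beside Trbv1, Dntt and Mycn, included Rgs1, a brake on chemokine signals (6.99), Slc35d3 (6.72), St8sia1 (5.96) and the receptor P2ry10 (5.95). Others were the factor Maf (5.64), Fasl, the death ligand of T cells (5.60), Arpp21 (5.50) and Emp1 (5.47). H2-Ob, a chain of the class II peptide exchanger (5.18), was among them too. The lowest probe sets of some of these genes were far from the brightest, at 0.17 for Mycn, -0.18 for Maf, -0.07 for St8sia1, 0.10 for Emp1, 0.77 for Arpp21 and 1.21 for Fasl. Rgs1 was lower on replicate 1 (10.37) than on replicates 2 and 3 (12.23 and 12.36), and each exceeded the GMP arrays (4.57 to 4.78).

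Part of the cell division genes were lower in ETP. Of 19 mitosis genes, 7 were lower and none higher, with a median of -1.07, and of 21 replication genes 8 were lower and none higher, with a median of -0.70. The mitotic kinase Aurkb was at 6.51, 5.76 and 6.09 in ETP, against 8.09, 7.94 and 7.89 in GMP (difference -1.85), and thymidine kinase (Tk1) at 6.51, 6.30 and 6.25 in ETP, against 8.77, 8.74 and 8.54 in GMP (difference -2.32). The groups did not overlap for either. When single arrays were left out, 3 to 6 mitosis genes and 5 to 9 replication genes were lower, the fewest of both without GMP replicate 1. With ETP replicate 1 as the only ETP array, 1 mitosis gene and 3 replication genes were lower. Of 11 cell cycle inhibitors, 5 were higher, among them Cdkn1b (1.26) and the antiproliferative Btg2 (2.23), and Cdkn2c was lower (-1.18).

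The ETP arrays themselves differed in the immediate early genes, which cells switch on within minutes of a stimulus or of handling. All 14 were over 2-fold lower on ETP replicate 1 than on both other ETP arrays, by a median of -2.89. Their mean level was 6.29, 9.02 and 9.40 on ETP replicates 1, 2 and 3, against 5.69, 5.74 and 5.76 in GMP, and the 5 LMPP arrays ran from 5.21 to 10.12. Egr1 was at 5.93, 10.68 and 10.69 in ETP, against 4.01, 4.43 and 4.26 in GMP, and Jun at 6.17, 10.91 and 11.62 in ETP, against 5.85, 6.13 and 5.76 in GMP. Of the 14, 9 were called higher in ETP, which became 5 without replicate 2, 4 without replicate 3, 11 without replicate 1 and none with replicate 1 as the only ETP array. The heat shock gene Hspa1b, not on the list and chosen after its values were seen, was at 4.88, 12.49 and 12.62 in ETP, against 6.0, 5.86 and 5.74 in GMP.

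Of 9 genes of class II antigen presentation, 4 were over 2-fold higher on ETP replicate 1 than on both other ETP arrays (H2-Aa, H2-Ab1, H2-Eb1 and Cd74), and 5 were not, among them H2-Oa (5.49, 5.82 and 5.32), H2-DMb2 (4.81, 4.56 and 5.01) and H2-Ob (10.32, 10.23 and 10.63). Against GMP, H2-Aa and H2-Ob were called higher in ETP and none lower, with a median of 0.65. H2-Aa, a chain of the class II molecule, was at 10.85 on replicate 1 and at 7.18 and 6.98 on replicates 2 and 3, against 6.83, 6.63 and 6.16 in GMP. Its call (difference 1.80, adjusted p = 0.0127) ended without replicate 1 (0.54) and also without GMP replicate 3 (1.60, adjusted p = 0.0613). H2-Eb1 was at 7.16, 4.60 and 4.45 and H2-Ab1 at 7.81, 5.56 and 5.81 on ETP replicates 1, 2 and 3, against 4.27 to 4.77 and 5.60 to 5.67 in GMP. Replicate 1 therefore had more of Mpeg1 and of these 4 class II genes and less of the immediate early genes and Il2ra, and it was also the ETP array without Xist. The part of what sets the array apart in these differences was not tested. Of the primary granule genes, none was over 2-fold apart on replicate 1. They were still somewhat higher there than the mean of replicates 2 and 3, by a median of 0.26, against 0.39 for the class II list. Their mean level was 7.45, 7.22 and 7.09 in ETP, against 10.35, 10.29 and 10.22 in GMP.

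**Figure D5:**
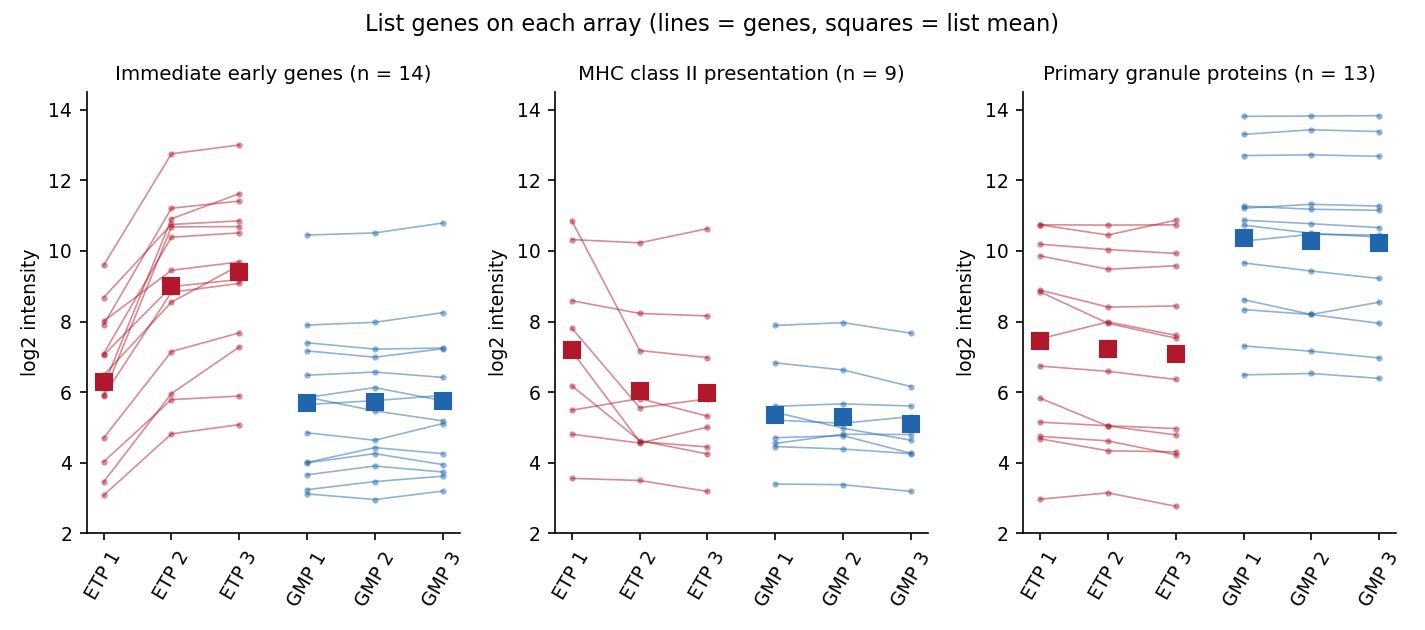
Lines join the log2 intensity (y axis) of each list gene across the ETP arrays and across the GMP arrays, and squares are list means. Immediate early genes are low and 4 of 9 class II genes high on ETP replicate 1. The mean of the primary granule genes is slightly highest on ETP replicate 1 and lies below GMP on all 3 ETP arrays.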

How the data were processed

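The arrays were measured with RNA of purified mouse cells, and the deposited values are RMA intensities made by the authors, per the series design text, on a linear scale. The software version, and any scaling between arrays, were not stated there. The intensities were turned into log2 values with no pseudocount. Of 45101 probe sets, 34958 had 1 gene symbol, 932 several and 9211 none in the platform table, and the brightest probe set stood for each of 18194 genes. A gene was tested if its mean passed 3.889 (the median log2 value of the whole table) in at least 1 group, which left 13949. Group means of 17 groups over 47 arrays were fitted with limma 3.58.1 in R 4.3.3 (30 residual degrees of freedom), and Benjamini-Hochberg adjustment ran over all genes tested. Genes were named from 27 lists (403 genes, 359 tested, 10 under the filter and 34 with no probe set named here), from the 12 largest rises and 12 largest falls whose arrays did not overlap, and from myeloid genes with an interval within 2-fold. The members and lists were chosen with earlier results of these data known. Promoters came from a RefSeq table of GRCm38.p6. Replicate numbers did not pair the arrays (correlations of deviations of 0.05, 0.03 and 0.08). Alternatives were the filter, the probe set rule, normalization, a floor at 16, the spread model, blocks, the arrays in the fit and leaving out each array.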

Additional observations from a re-analysis of the deposited data

How the results depend on the processing

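The count of arrays, 3 in each group, limits the precision. Leaving out each array gave 743 to 816 genes higher and 791 to 1005 lower in ETP minus GMP, 892 to 1129 higher and 595 to 753 lower in ETP minus LMPP, and 1489 to 1846 higher and 1778 to 1920 lower in ETP minus CD4. The fit with a replicate block called 828 genes up and 936 down in ETP minus GMP, and 0 of 179 named calls or intervals ended. With the class by sex-linked transcripts as a block, 16 of the 179 ended, and 1273 genes were lower in ETP minus CD4, against 1940. With the mean of all probe sets, 577 genes were higher in ETP minus LMPP, against 993, and 596 higher and 693 lower in ETP minus GMP, and 21 of the 179 ended, among them Il17ra, Sirpa, Tlr4, Tlr7, Bcl11b, Ets2, Runx1 and Erg. Quantile normalization again gave 672 higher and 984 lower in ETP minus LMPP, against 993 and 671. With ETP replicate 1 as the only ETP array, a setting added after the data were seen, 642 genes were higher and 618 lower in ETP minus GMP, and 57 of the 179 ended, a fit with fewer arrays. Medians near 0 changed sign for mature T markers (0.23, stricter filter on dim genes), and for erythroid (0.16) and platelet markers (-0.10) with that 1 ETP array. Other list medians within 0.1 of 0 also crossed 0 by less, as without ETP replicate 2 for dendritic genes (-0.01, against 0.03), platelet markers (-0.07, against 0.01) and erythroid markers (0.05, against -0.03), and without ETP replicate 3 for mature T markers (0.09, against -0.02). B cell markers (-0.03, class block) and Toll-like genes (0.10, that 1 ETP array) did so too. No named gene that was called changed sign under any alternative run. The cause of these shifts was not tested. Late neutrophil genes called lower were 8, and mitosis genes 11, when only the compared arrays were fitted.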

Other observations

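Interferon-stimulated genes were higher in ETP than in GMP for 5 of 11 tested and lower for none, with a median difference of 0.84 (5.86% of all genes tested were higher, with a median of -0.06). Rtp4 (difference 3.89), the antiviral genes Ifit1 (2.76) and Rsad2 (2.67), the protease Usp18 (2.57) and Oasl2 (2.28) passed limma's test and the 2-fold limit. The mean level of the list was 6.93, 6.81 and 6.81 in ETP, against 5.33, 5.37 and 5.20 in GMP, so the ETP arrays were alike and did not overlap with GMP.

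Of 16 homing receptors and integrins, 3 were higher and 2 lower in ETP, with a median of 0.08. Of 11 stem cell genes, 2 were higher and none lower, with a median of 0.06.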
